A study of Mus musculus with 32 samples.

Results

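Neurons of the upper cortical layers are the last excitatory neurons to be made in the embryo, and 9 genes commonly used to recognise them or their progenitors were followed here in single cells of the developing mouse cortex. The genes were taken by symbol, 9 of the 32285 genes in the count matrices. They are the homeodomain factors Cux1 and Cux2, the POU factors Pou3f1, Pou3f2 and Pou3f3, the MADS-box factor Mef2c, the activin subunit Inhba, the adaptor protein Dok5 and the nuclear receptor Rorb.

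Tissue came from the dorsal telencephalon of C57BL/6J embryos, with its medial part removed, at embryonic days E12.5 and E14.5 and at the later stages E16.0 and E17.5, and single cells were captured with the 10x Genomics 3′ chemistry, version v2. At each stage 4 wild-type embryos (WT) were compared with 4 embryos carrying 1 altered copy of Chd8 (Chd8+/-, here het), a chromatin remodeller gene, matched by litter and sex. Each of the 32 libraries in 8 groups therefore came from 1 embryo, and replicates are named M1 and M2 (male) and F1 and F2 (female). After filtering, 138226 cells remained, between 2399 and 6951 per library, with median depths between 3926 and 10536 UMIs (counted RNA molecules) per cell. Summed over all cells, Chd8 lay between 39.3 and 82.9 CPM (UMIs of a gene scaled to a common library total) in WT and between 19.4 and 70.9 CPM in het libraries, and was lower in het in 15 of 16 pairs. The labels do not say which part of Chd8 is altered, so this checks the genotypes only so far.

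In the cortex, radial glia line the ventricle and give rise to intermediate progenitors, which divide to make excitatory neurons. Neurons of the deep layers are born first and those of the upper layers later. Cux1 and Cux2 mark upper-layer neurons and shape their dendrites, the POU factors act in late progenitors and migrating upper-layer neurons, Rorb marks layer 4, and Mef2c acts in neuronal differentiation and synapse development. Inhba encodes the subunit of activin A, a secreted ligand that signals through activin receptors and Smad proteins, and Dok5 encodes a docking protein of receptor tyrosine kinase signalling.

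Levels were read in cells with at least 1 UMI of Sox2, a radial glia gene, of Eomes, an intermediate progenitor gene, or of Neurod6, an excitatory neuron gene. These classes held 54016, 31758 and 85104 cells and overlap: at E12.5, 41.6% of Neurod6-detected WT cells also had a Sox2 UMI, and at E17.5, 10.4% did. Cells with a Neurod6 UMI made up 15.97% of Sox2-detected WT cells at E12.5, 41.9% at E14.5, 38.1% at E16.0 and 45.0% at E17.5. Of Eomes-detected cells they made up 61.1%, 80.6%, 76.8% and 83.7%. Levels in those classes therefore include neuron-marked cells, and exclusive states are given further on. For each library the UMIs of a class were summed and a gene's level was its CPM in that sum. Since detection of a marker depends on depth, class membership does too. In the Sox2-detected class of WT, cells with markers of other types rose from 1.57% at E12.5 to 30.3% at E17.5, and the summed level of 6 interneuron genes ran from 2.91 to 24 CPM at E12.5 and from 160 to 651 CPM at E17.5. That of 5 oligodendrocyte precursor genes ran from 1.25 to 1.68 and from 207 to 394 CPM. Several results that turn on those cells are given with and without them below.

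Free RNA was gauged in vascular, immune and meningeal cells, which should lack most of these genes. Pooled over both genotypes, their level at each of the 4 stages was at most 5.66 CPM for Cux2, 6.85 for Dok5, 5.60 for Inhba and 8.22 for Pou3f1. It was at most 26.4 CPM for Pou3f2, 32.4 for Pou3f3 and 9.12 for Rorb. Cux1 lay between 54.8 and 94.1 CPM and Mef2c between 144 and 283 CPM there. Both genes have known expression outside neurons, Mef2c in endothelial cells and microglia, so these cells are no blank for them. For the other genes the mean over the 4 WT libraries alone peaked higher than the pooled level. It was 19.6 CPM for Pou3f1, 48.0 for Pou3f2 and 46.3 for Pou3f3 at E16.0, from 10, 29 and 26 UMIs. For Rorb it was 13.3 CPM at E17.5, from 19 UMIs.

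The genes lie on 6 chromosomes of build GRCm38: Cux1 on chromosome 5 from 136248135 to 136567490 and Cux2 on chromosome 5 from 121856366 to 122050102, Pou3f1 on chromosome 4 from 124656807 to 124660655 and Pou3f2 on chromosome 4 from 22482780 to 22488366, Pou3f3 on chromosome 1 from 42695768 to 42703176, Mef2c on chromosome 13 from 83504034 to 83667080 and Inhba on chromosome 13 from 16011851 to 16031621, Dok5 on chromosome 2 from 170731807 to 170879769, and Rorb on chromosome 19 from 18930605 to 19111196. The 3 POU genes each have a single exon. Antisense genes overlap Cux1 (Gm16599), Cux2 (Gm3970 and Gm15637), Pou3f1 (Gm2164) and Inhba (Gm48444), and AC122898.1 overlaps Pou3f3 on the same strand. Whether counting used strand is not given in the sources used here, so reads of such pairs may not be told apart.

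Promoter windows of 300 bases, 250 before and 50 after an annotated start, were found for 7 of the 9 genes (11 windows) in RefSeq on GRCm38.p6. Pou3f1 and Dok5 had no entry. The windows of Pou3f2 and Pou3f3, single-exon paralogs that both rose with stage but by different amounts, are shown with that of Inhba, the gene that appeared last. Capitals mark the CCAAT box, searched as CCAAT on both strands (ATTGG on the other).
Pou3f2, chr4:22488317-22488616, minus strand: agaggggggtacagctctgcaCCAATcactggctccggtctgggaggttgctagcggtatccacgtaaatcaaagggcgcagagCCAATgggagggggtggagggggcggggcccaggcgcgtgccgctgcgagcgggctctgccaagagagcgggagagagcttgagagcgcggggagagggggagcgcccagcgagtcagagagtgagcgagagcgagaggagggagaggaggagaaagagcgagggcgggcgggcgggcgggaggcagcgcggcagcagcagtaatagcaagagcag
Pou3f3, chr1:42695518-42695817, plus strand: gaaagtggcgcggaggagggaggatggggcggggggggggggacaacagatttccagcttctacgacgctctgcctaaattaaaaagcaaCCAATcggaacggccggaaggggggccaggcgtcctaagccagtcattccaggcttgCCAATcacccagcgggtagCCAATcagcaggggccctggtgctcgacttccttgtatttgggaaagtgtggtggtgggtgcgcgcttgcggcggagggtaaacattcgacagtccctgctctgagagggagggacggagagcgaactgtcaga
Inhba, chr13:16011601-16011900, plus strand: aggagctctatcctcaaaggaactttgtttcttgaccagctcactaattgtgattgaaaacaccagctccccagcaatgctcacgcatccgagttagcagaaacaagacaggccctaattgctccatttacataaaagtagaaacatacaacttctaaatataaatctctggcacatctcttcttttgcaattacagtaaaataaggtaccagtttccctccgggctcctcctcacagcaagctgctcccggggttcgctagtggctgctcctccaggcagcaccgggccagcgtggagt
The Pou3f2 window held 2 CCAAT boxes, the Pou3f3 window 3 and the Inhba window none. Among the 11 windows 5 held the motif, against 37.4% of all 32851 RefSeq windows. GC content was 67.7% for Pou3f2, 60.3% for Pou3f3 and 47.7% for Inhba, with a median of 52.7% over all windows. The octamer ATGCAAAT, a POU motif, was in none of the 11 windows and in 1.74% of all windows. A match describes the letters in the window only.

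All 9 genes rose in WT between E12.5 and E17.5 in each of the 3 classes. The smallest changes were those of Cux1 in Sox2-detected and Eomes-detected cells, and in Neurod6-detected cells every change was at least 2.83-fold. Called here means an adjusted p under 0.05 by edgeR's quasi-likelihood test on summed counts, with Benjamini-Hochberg adjustment over all genes tested in the class. By that test 31.8% of all genes were higher at E17.5 in Sox2-detected, 25.9% in Eomes-detected and 31.5% in Neurod6-detected cells. In all 27 cases the 4 WT libraries of E17.5 lay above the 4 of E12.5, which held for 29.1%, 24.1% and 26.6% of genes with at least 10 UMIs in those classes. No label code spans 2 stages, so stage cannot be told apart from litter or processing day.

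The plot of CPM by stage shows each library.

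**Figure D1:**
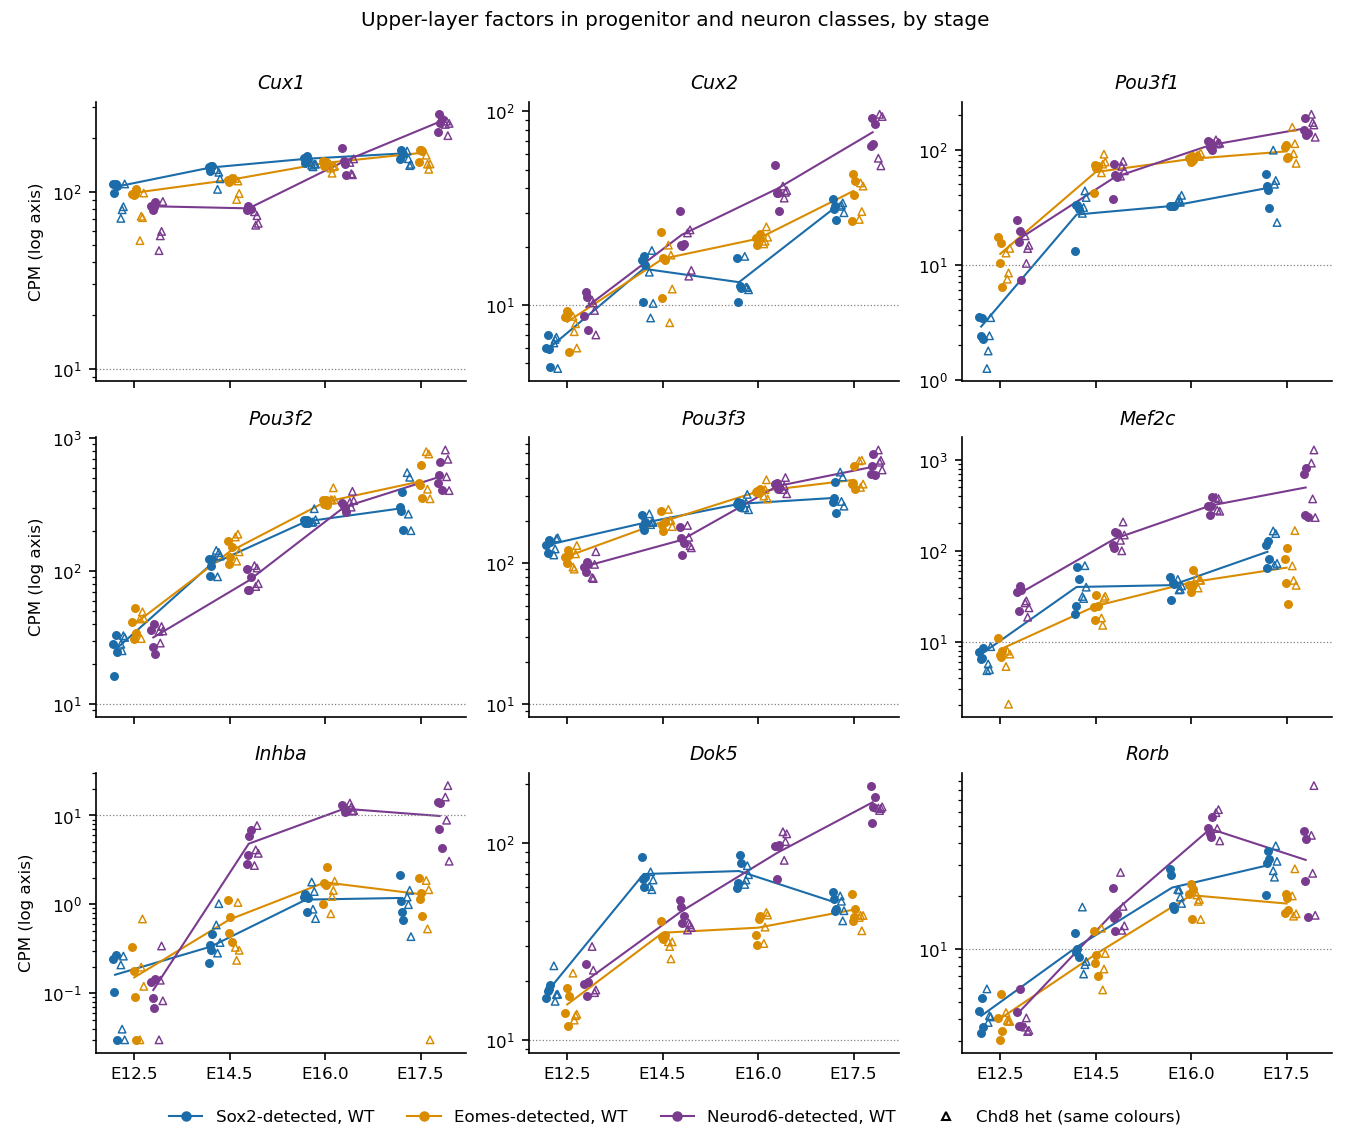
CPM of the 9 genes (log axis) by stage in Sox2-detected, Eomes-detected and Neurod6-detected cells; each point is 1 library, filled for WT and open for het, values of 0 are drawn at 0.03 CPM, and the dotted line is 10 CPM. All 9 genes sit higher at E17.5 than at E12.5 in WT in each class, and Inhba passes the line only in Neurod6-detected cells.

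Cux1 was present from the start in progenitors and rose late in neurons. In Neurod6-detected WT cells the libraries M1, M2, F1 and F2 held 81.8, 87.4, 83.2 and 78.5 CPM of it at E12.5, 80.3, 80.0, 78.9 and 82.9 CPM at E14.5, 143, 125, 176 and 150 CPM at E16.0, and 243, 259, 218 and 274 CPM at E17.5. The first pair of stages overlapped, and every later stage lay above the one before. The log2 fold change of E17.5 over E12.5 was 1.5 (SE 0.13, adjusted p = 1.29e-10). In Sox2-detected cells the mean went only from 106 ± 5.51 to 164 ± 8.80 CPM (SD, n = 4 each), a log2 change of 0.46 (SE 0.08, adjusted p = 1.21e-05), and in Eomes-detected cells the log2 change was 0.62 (SE 0.10, adjusted p = 3.12e-06).

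Cux2, the paralog of Cux1, was low at E12.5 in every class. Neurod6-detected WT cells had 11.1, 7.46, 8.75 and 11.7 CPM at E12.5, 20.3, 20.7, 30.7 and 20.5 CPM at E14.5, 37.8, 30.6, 53.1 and 38.0 CPM at E16.0, and 67.5, 86.3, 66.2 and 92.1 CPM at E17.5 (M1, M2, F1, F2). The stages did not overlap except that F1 at E14.5 (30.7 CPM) reached M2 at E16.0 (30.6 CPM), and the log2 change from E12.5 to E17.5 was 2.92 (SE 0.25, adjusted p = 7.07e-11). In Sox2-detected cells the change was 2.24 (SE 0.20, adjusted p = 9.12e-11), from 5.93 ± 0.926 to 31.7 ± 3.23 CPM (SD, n = 4 each). Without cells bearing markers of other types the E17.5 mean in that class was 22.9 ± 3.29 CPM, so part of the level came from those cells.

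Pou3f2 showed the steepest rise of the POU genes in neurons. Its 4 libraries in Neurod6-detected WT cells were at 40.3, 24, 36.0 and 26.7 CPM at E12.5, 71.8, 91.0, 104 and 72.3 CPM at E14.5, 298, 278, 327 and 307 CPM at E16.0, and 656, 407, 456 and 524 CPM at E17.5. No library of a stage overlapped the stage before, and all 3 steps were called, with log2 changes of 1.4, 1.70 and 0.81. The whole change was 15.1-fold (log2 3.92, SE 0.19, adjusted p = 4.80e-16). It was 10.3-fold in Sox2-detected and 10.8-fold in Eomes-detected cells. Both progenitor classes called the first 2 steps, and the step from E16.0 to E17.5 was not called in either (adjusted p = 0.180 and 0.0804).

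Pou3f3 started higher against its own later level and rose less. Neurod6-detected WT cells had 102, 97.9, 94.4 and 86.2 CPM at E12.5, 115, 139, 179 and 150 CPM at E14.5, 336, 338, 361 and 369 CPM at E16.0, and 589, 418, 426 and 488 CPM at E17.5. Each stage lay above the one before, and the log2 change from E12.5 to E17.5 was 2.24 (SE 0.14, adjusted p = 1.68e-13). In Sox2-detected cells it was 0.93 (SE 0.14, adjusted p = 1.39e-06), from 135 ± 11.9 to 289 ± 62.6 CPM (SD, n = 4 each).

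Pou3f1, known also from myelinating glia, rose in all 3 classes. In Sox2-detected WT cells the 4 libraries gave 3.42, 2.25, 3.51 and 2.41 CPM at E12.5, 32.7, 30.3, 13.1 and 32.8 CPM at E14.5, 32.6, 32.2, 32.4 and 32.2 CPM at E16.0, and 44.5, 31.2, 61.5 and 48.1 CPM at E17.5. The step from E12.5 to E14.5 was called (log2 3.11, SE 0.30, adjusted p = 1.67e-09), with F1 at E14.5 well below the other 3 libraries. Neither later step was (log2 0.13 and 0.59, adjusted p = 0.827 and 0.123). From E12.5 to E17.5 the change was 14.1-fold in Sox2-detected, 7.09-fold in Eomes-detected and 8.57-fold in Neurod6-detected cells. In Sox2 cells without Eomes or Neurod6 it was 4.40-fold (log2 2.14, SE 0.26, adjusted p = 3.92e-08), from 1.91 to 9.97 CPM. The level in vascular, immune and meningeal cells, pooled over both genotypes, went from 0.802 to 7.24 CPM over the same stages. Free RNA and expression can therefore not be told apart in that state.

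Mef2c rose in each class but with wide spread at E17.5. Its level in Neurod6-detected WT cells was 41.3, 37.0, 35.3 and 21.9 CPM at E12.5, 162, 157, 116 and 106 CPM at E14.5, 309, 391, 308 and 245 CPM at E16.0, and 804, 234, 694 and 249 CPM at E17.5. M1 and F1 at E17.5 lay far above E16.0, whereas M2 and F2 lay within or below its range, and the last step was not called (log2 0.73, SE 0.36, adjusted p = 0.245). The change from E12.5 to E17.5 was 13.7-fold (log2 3.77, SE 0.40, adjusted p = 4.37e-09) in Neurod6-detected, 11.8-fold in Sox2-detected and 7.10-fold in Eomes-detected cells.

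Rorb was highest at E16.0 in neurons on average. Neurod6-detected WT cells had 5.94, 3.66, 4.37 and 3.67 CPM at E12.5, 12.7, 15.7, 22.2 and 15 CPM at E14.5, 43.1, 55.9, 48.4 and 45.0 CPM at E16.0, and 42.1, 15.1, 46.8 and 24.2 CPM at E17.5. At E17.5 M2 and F2 lay far below all libraries of E16.0, M1 just below them and F1 within their range. The last step was not called (log2 -0.52, SE 0.32, adjusted p = 0.373). From E12.5 to E17.5 the change was 6.80-fold in Neurod6-detected, 6.41-fold in Sox2-detected and 4.10-fold in Eomes-detected cells.

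Inhba was close to absent at E12.5 and, among the 3 classes, appeared almost only in Neurod6-detected cells. Neurod6-detected WT cells had 0.0682, 0.143, 0.135 and 0.0895 CPM at E12.5, from 1, 2, 2 and 1 UMIs, then 5.92, 6.87, 2.82 and 3.64 CPM at E14.5, 11, 11.2, 13.2 and 12.3 CPM at E16.0, and 13.9, 4.26, 14.3 and 7.03 CPM at E17.5. The steps to E14.5 and E16.0 were called (adjusted p = 2.30e-07 and 0.0397) and the last was not (adjusted p = 0.799). Pooled over the 4 libraries, the E17.5 level was 93.3 times that of E12.5, with an interval of 42.6 to 255 that covers counting error only. In Sox2-detected and Eomes-detected cells no WT library exceeded 2.63 CPM at any stage. The E17.5 over E12.5 ratios there rested on 21 against 27 and on 22 against 7 UMIs in unequal totals. Vascular, immune and meningeal WT cells held 9 Inhba UMIs at E14.5, all in 1 library, where the level was 24.9 CPM.

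Dok5 rose at each stage in neurons and, in Sox2-detected cells, between E12.5 and E14.5. In Neurod6-detected WT cells it was at 16.7, 19.8, 19.2 and 24.4 CPM at E12.5, 39.4, 42.8, 51.2 and 47.3 CPM at E14.5, 97.1, 98.0, 96.6 and 65.7 CPM at E16.0, and 152, 171, 196 and 126 CPM at E17.5. Stages did not overlap, all 3 steps were called, and the whole change was 7.63-fold (log2 2.93, SE 0.18, adjusted p = 6.41e-14). Sox2-detected cells went from 17.8 ± 1.09 CPM at E12.5 to 69.7 ± 11 CPM at E14.5, were at 72.2 ± 13.6 CPM on E16.0 and came to 50.2 ± 5.19 CPM at E17.5 (SD, n = 4 each). That last step was the only fall called between neighbouring stages in WT (log2 -0.45, SE 0.15, adjusted p = 0.0277). In het the same step was called too (log2 -0.45, SE 0.15, adjusted p = 0.0193). Without cells bearing markers of other types the WT mean at E17.5 was 61.3 ± 3.62 CPM. Without them the WT step was no longer called (log2 -0.23, adjusted p = 0.240), nor was it with thinned cells (-0.38, adjusted p = 0.0739) or without doublet removal (-0.32, adjusted p = 0.105). It stayed called in Sox2 cells without Eomes or Neurod6 (-0.71, adjusted p = 0.000736) and with at least 2 UMIs of Sox2 (-0.52, adjusted p = 0.00817). The same held without TMM factors (-0.53, adjusted p = 0.00497) and by DESeq2 (-0.46, adjusted p = 0.0150). Leaving out WT M1 or M2 of E16.0 or WT M1 or M2 of E17.5 gave -0.34, -0.41, -0.39 and -0.42 (adjusted p = 0.125, 0.0748, 0.0823 and 0.0738).

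Between neighbouring stages in WT 45 of 81 contrasts were called, 44 of them up. From E12.5 to E14.5, 8 of 9 genes were called in each class (all but Inhba in Sox2-detected cells, and all but Cux1 in the other classes), against 38.1% of all genes in Sox2-detected, 30.1% in Eomes-detected and 37.1% in Neurod6-detected cells. From E14.5 to E16.0 the counts were 2 of 9 in Sox2-detected cells (Pou3f2 and Rorb), where 8.99% of all genes were called, 3 of 9 in Eomes-detected cells (those and Pou3f3), with 6.35%, and 7 of 9 in Neurod6-detected cells (all but Cux2 and Mef2c), with 10.2%. From E16.0 to E17.5 they were 3 of 9 (Cux2 and Mef2c up, Dok5 down; background 22.2%), 1 of 9 (Cux2; background 7.67%) and 5 of 9 (Cux1, Cux2, Pou3f2, Pou3f3 and Dok5; background 5.9%), in the same order of classes.

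First appearance was read as the first stage at which a gene had at least 10 CPM in each of the 4 WT libraries. Cux1, Pou3f2, Pou3f3 and Dok5 met this at E12.5 in all 3 classes. Mef2c met it at E12.5 in Neurod6-detected cells and at E14.5 in both progenitor classes. Cux2 and Pou3f1 followed at E14.5 in all classes, but in Sox2 only cells Pou3f1 did not meet the rule at any stage (lowest library 3.61 CPM at E14.5 and 8.62 CPM at E17.5). Rorb came at E14.5 in Neurod6-detected and at E16.0 in Sox2-detected and Eomes-detected cells, and Inhba at E16.0 in Neurod6-detected cells and at no stage in the others. No gene met the rule in progenitors at an earlier stage than in Neurod6-detected cells. Of the 27 pairs of gene and class 13 were present at E12.5 and 22 at E14.5. The later stages had 25 (E16.0) and 24 (E17.5), since at E17.5 Inhba in Neurod6-detected cells fell out. With exclusive classes the counts were 14, 19, 22 and 22. In het libraries Cux2 reached the threshold only at E16.0 in the progenitor classes, with a lowest value of 8.57 CPM in Sox2-detected and 8.10 CPM in Eomes-detected cells at E14.5, and Pou3f1 reached it at E12.5 in Neurod6-detected cells.

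Values near the threshold set several of these stages. Pou3f1 in Neurod6-detected WT cells at E12.5 was at 19.8, 7.32, 24.3 and 15.8 CPM, so that M2 alone kept it out. Cux2 in Sox2-detected cells at E14.5 was at 18, 16.1, 17.1 and 10.4 CPM, and without cells of other types its mean there fell from 15.4 ± 3.43 to 7.6 ± 1.53 CPM, below the threshold. At E16.0 its mean without those cells was 9.51 CPM, with a lowest library of 8.02 CPM. It then met the rule only at E17.5, with a lowest library of 19.3 CPM. Mef2c in Sox2-detected cells at E14.5 was at 66.1, 48.7, 20.3 and 24.7 CPM, and its mean went from 40.0 ± 21.4 to 19.0 ± 6.81 CPM without cells of other types (SD, n = 4 each).

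The share of cells with a UMI rose in the same way. Each cell was thinned to 2000 UMIs, which left out between 0 and 174 shallower cells per WT library. Pou3f2 was then found in 7.05% ± 0.613 of Neurod6-detected WT cells at E12.5 and in 60.5% ± 6.25 at E17.5 (SD, n = 4 each), against 0.337% and 3.48% of the vascular, immune and meningeal cells of both genotypes. The unthinned shares were 21.3% and 80.7%. Cux1 was found in 13.6% ± 0.912 and 40.1% ± 3.7 after thinning, against 8.77% and 16.4% of those other cells, and in 49.5% and 64.3% before it. Inhba stayed rare, with 2.60% ± 0.466 of thinned Neurod6-detected cells at E16.0, its highest stage, and 4.87% unthinned. Median depth of Neurod6-detected cells fell from 8891 to 4768 UMIs and that of the other cells from 12364 to 6037 UMIs between E12.5 and E17.5.

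To separate progenitors from neurons of the same libraries, cells were split into exclusive states by which of the 3 marker genes they showed, and Neurod6 only cells were compared with Sox2 only cells with the library as a block. In WT, 31 of 36 comparisons (9 genes, 4 stages) were called, 25 higher and 6 lower in Neurod6 only cells. The background of this comparison was high, at 72.2% of all genes at E12.5, 74.4% at E14.5, 78.5% at E16.0 and 66.3% at E17.5. The states run from 10812 Sox2 only WT cells at E12.5 to 172 Eomes only cells at E17.5.

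Pou3f1 and Mef2c were higher in neurons at every stage. Pou3f1 was at 1.91 ± 0.274 CPM in Sox2 only and 28.9 ± 10.3 CPM in Neurod6 only cells at E12.5, and at 9.97 ± 2.25 and 178 ± 38.9 CPM at E17.5 (SD, n = 4 each), with log2 differences of 3.84, 2.89, 3.84 and 4.24 from the first stage to the last. Mef2c differed by 3.96, 2.17, 3.83 and 2.38, all called. Those differences include cells with markers of other types. Leaving such cells out took Mef2c in Sox2-detected WT cells from 40.0 to 19.0 CPM at E14.5 and from 97.4 to 66.2 CPM at E17.5. Inhba did not pass the test at E12.5 (2 against 22 UMIs, ratio 0.820 with a counting interval of 0.0935 to 3.34) and was 55.6 times higher in Neurod6 only cells at E14.5 (interval 18.9 to 271, from 422 against 3 UMIs), 44.2 times at E16.0 and 27.3 times at E17.5.

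Cux1, Pou3f3 and Pou3f2 changed sides during development. Cux1 was lower in Neurod6 only than in Sox2 only cells at E12.5 (log2 -1.23, SE 0.10) and E14.5 (-1.35, SE 0.08), not called at E16.0 (-0.06, 95% interval -0.22 to 0.10, adjusted p = 0.510) and higher at E17.5 (0.90, SE 0.09). The means behind these were 106 ± 6.32 and 47.5 ± 1.01 CPM at E12.5 and 159 ± 14.6 and 285 ± 42.2 CPM at E17.5. Pou3f3 went from -1.55 and -0.72 to 0.66 and 1.31, all called. Pou3f2 went from 0.02 (adjusted p = 0.885) through -0.82 to 0.59 and 1.68, the last 3 called. Dok5 was higher in neurons at E12.5 (0.42), lower at E14.5 (-0.78) and higher at E16.0 (0.53) and E17.5 (2.11), all called.

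Cux2 was higher in Neurod6 only cells at all 4 stages, by log2 1.10, 0.45, 2.34 and 1.42. The Sox2 only cells of this comparison include cells with markers of other types. Leaving such cells out took Cux2 in Sox2-detected WT cells from 15.4 to 7.6 CPM at E14.5 and from 31.7 to 22.9 CPM at E17.5. Rorb did not pass the test at E12.5 (0.35, adjusted p = 0.411), was higher in neurons at E14.5 (1.02) and E16.0 (1.69), and did not pass it at E17.5 (-0.14, SE 0.23, adjusted p = 0.613), with 37.6 ± 8.70 CPM in Sox2 only and 36.7 ± 19.5 CPM in Neurod6 only cells (SD, n = 4 each). That neuron mean spans a split between libraries: WT and het M1 and F1 gave 42.1 to 84.6 CPM of Rorb in Neurod6-detected cells, and M2 and F2 gave 15.1 to 26.9 CPM, whereas in Sox2-detected cells these pairs had means of 30.7 and 30.1 CPM.

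Intermediate progenitors were compared with radial glia in the same way, as Eomes cells without Neurod6 against Sox2 only cells. Here 16 of 36 comparisons were called, 8 up and 8 down, with backgrounds of 25.6%, 19.5%, 23.3% and 14.1% of all genes from E12.5 to E17.5. Pou3f1 was higher at each stage (log2 1.48, 1.86, 1.959 and 1.66), and Pou3f2 at E12.5 (0.68), E14.5 (0.33) and E17.5 (0.58). Pou3f3 was higher at E17.5 (0.35) and Cux1 lower at E14.5 (-0.34). Dok5 was lower at E12.5, E14.5 and E16.0 (-0.42, -0.36 and -0.50). Cux2 was lower at E14.5 (-1.69) and E17.5 (-1.52) and Mef2c at E14.5 (-1.59) and E17.5 (-1.52). Without cells of other types 7 of the 16 were no longer called: Cux2 became 0.14 and 0.50, Mef2c 0.061 and -0.78, Pou3f2 0.19 at E14.5 and 0.29 at E17.5, and Pou3f3 0.23. Dok5 at E17.5 (-0.69) was called in addition, which makes 10 in all.

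The plot by marker state gives all 5 states. At E17.5 Pou3f1 went from 9.97 ± 2.25 CPM in Sox2 only through 45.2 ± 13.8 in Eomes only and 110 ± 13 in Eomes and Neurod6 cells to 178 ± 38.9 CPM in Neurod6 only cells (SD, n = 4 each). Pou3f2 was at 528 ± 104 CPM in Neurod6 only and at 517 ± 118 CPM in Eomes and Neurod6 cells. Cux1 stayed between 145 and 169 CPM in the first 4 states and reached 285 CPM in the last.

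**Figure D2:**
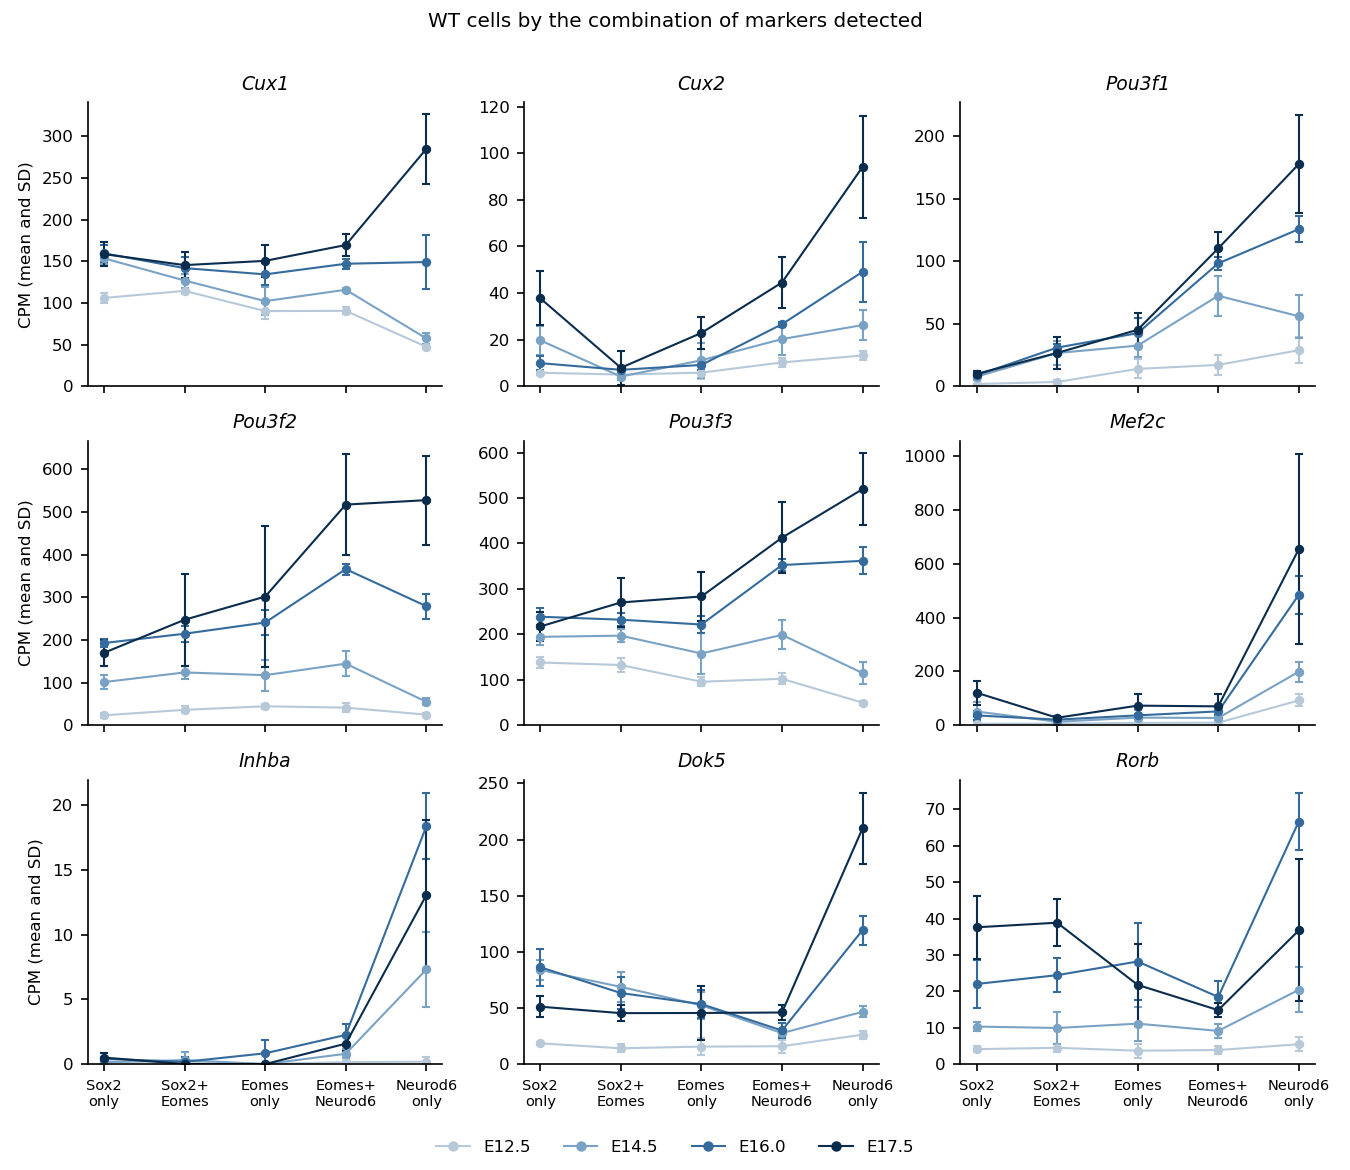
Mean CPM ± SD over 4 WT libraries in cells with Sox2 only, Sox2 and Eomes, Eomes only, Eomes and Neurod6, and Neurod6 only, with 1 line per stage and 1 panel per gene. For Cux1 and Pou3f3 the Neurod6 only state lies below the Sox2 only state at E12.5 and above it at E17.5, whereas for Pou3f1 it lies above at all 4 stages.

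Detection in the same cell was read at E17.5, and for Mef2c also at E16.0. In Neurod6-detected cells thinned to 2000 UMIs, the log2 odds of a Cux1 UMI in cells with Bcl11b, a gene of deep subcerebral neurons, against those without ran from -1.63 to -0.11 over the 8 libraries of both genotypes. Rorb went with Bcl11b (0.08 to 1.61) and with Fezf2, another deep-layer gene (0.66 to 1.75). The fewest cells with both genes in a library were 6 and 3. Cux2 with Bcl11b ran from -0.91 to 0.55 and was above 0 in 4 libraries. The odds of a Pou3f2 UMI were higher in cells with Pou3f3 than in cells without it in all 8 libraries (0.54 to 1.5), and lower in cells with Mef2c (-1.72 to -0.26). Mef2c went with Dok5 (0.67 to 1.43), with Rorb (0.20 to 1.87) and with Fezf2 (0.03 to 1.07). With Bcl11b its log2 odds ran from -0.50 to 1.09, above 0 in 6 libraries. At E16.0 Mef2c went with Bcl11b (1.05 to 1.79) and with Fezf2 (0.91 to 1.57) in all 8 libraries. These are descriptions, and cells of 1 library are not replicates.

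The split of the E17.5 libraries touched several genes. Their labels carry a code of unstated meaning that begins with p for M1 and F1 of both genotypes, with c17 for M2 and with c16 for F2. In Neurod6-detected cells of both genotypes (4 libraries in each set) Mef2c lay at 694 to 1281 CPM in M1 and F1 and at 232 to 371 CPM in M2 and F2, a ratio of means of 3.4. Rorb lay at 42.1 to 84.6 against 15.1 to 26.9 CPM and Inhba at 13.9 to 21.7 against 3.06 to 8.86 CPM, both higher in M1 and F1. Cux2 (52.3 to 67.5 against 86.3 to 96.6 CPM) and Cux1 (208 to 243.1 against 243.5 to 274 CPM) were lower there.

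The sets did not overlap for 5 of 9 genes in Neurod6-detected cells, where 27.8% of genes did not, for 2 of 9 in Sox2-detected cells (Pou3f2 and Mef2c, both higher in M1 and F1; background 19.3%) and for 4 of 9 in Eomes-detected cells (Pou3f2, Mef2c and Inhba higher, Cux2 lower; background 18%). The sum of 6 immediate early and heat shock genes was 455 to 800 CPM in M1 and F1 and 183 to 235 CPM in M2 and F2 of Neurod6-detected cells, and its part in these differences was not tested. The log2 step from E16.0 to E17.5 in Neurod6-detected cells was 1.31 for Mef2c with M1 and F1 as the only E17.5 libraries and -0.33 with M2 and F2. For Rorb it was -0.055 and -1.26. These library pairs were chosen after seeing the data, so the steps are given with no test.

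**Figure D3:**
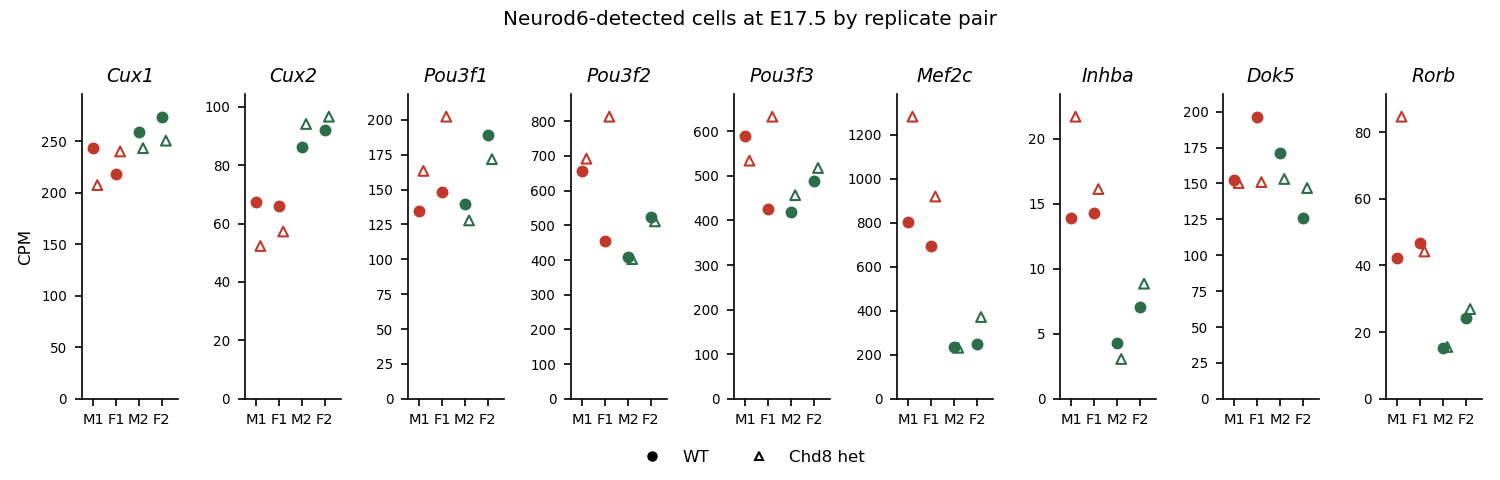
CPM of the 9 genes in Neurod6-detected cells at E17.5 by matched pair (M1, F1, M2, F2), filled for WT and open for het. Mef2c, Rorb and Inhba are higher and Cux2 is lower in both genotypes of M1 and F1 than in M2 and F2.

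Het was compared with WT over stages with equal weight for each stage. In 27 tests (9 genes, 3 classes) 1 was called: Cux1 in Sox2-detected cells was lower in het, by log2 -0.17 (SE 0.04, adjusted p = 0.0447), against 0.486% of all genes called in that class. From E12.5 to E17.5 the WT libraries (M1, M2, F1, F2) had 110, 107, 110 and 98.4 CPM, then 140, 139, 139 and 130, then 159, 154, 155 and 146, and then 168, 164, 152 and 173 CPM. Het libraries had 82.3, 111, 70.7 and 79.1 CPM, then 129, 118, 133 and 103, then 143, 143, 141 and 138, and then 140, 143, 170 and 154 CPM. Het was below its matched WT library in 14 of 16 pairs, the exceptions being M2 at E12.5 and F1 at E17.5.

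The same direction was seen in the other classes without passing the test there. In Eomes-detected cells the log2 change of Cux1 was -0.20 (95% interval -0.29 to -0.11, adjusted p = 0.0616; background 0.305%), lower in 14 of 16 pairs. In Neurod6-detected cells it was -0.19 (interval -0.32 to -0.06, adjusted p = 0.468; background 0.233%), lower in 13 of 16 pairs. With the matched pair as a block it was -0.17 (adjusted p = 0.0174) in Sox2-detected, -0.21 (adjusted p = 0.0166) in Eomes-detected and -0.20 (adjusted p = 0.0730) in Neurod6-detected cells, which makes 2 calls in place of 1. That fit called 229 of 13791 genes in Sox2-detected and 150 of 13108 in Eomes-detected cells, against 67 and 40 without the block. The call in Sox2-detected cells was kept in 5 of the 32 fits that left out 1 library (het F1 or het M2 of E12.5, het F1 of E14.5, WT F1 or het F1 of E17.5). Over the 32 fits the log2 change ran from -0.20 to -0.16 and the adjusted p from 0.00305 to 0.0848.

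Depth differed between genotypes at E12.5. Median UMIs per cell were 8593 to 10475.5 in the 4 WT libraries and 5982, 10536, 4092.5 and 5938.5 in het M1, M2, F1 and F2, and Cux1 in het M2, the deepest, was above that of its WT partner. At 2000 UMIs per cell the averaged change in Sox2-detected cells was -0.19 (adjusted p = 0.0997), and without E12.5 it was -0.15 (adjusted p = 0.300). The part of depth in the Cux1 difference was not tested.

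At single stages 0 of 108 tests were called (5 had an unadjusted p under 0.05). The backgrounds from E12.5 to E17.5 were 1.04%, 0%, 0.0218% and 0% of all genes in Sox2-detected, 0.404%, 0%, 0.00763% and 0.00763% in Eomes-detected, and 0.00686%, 0%, 0% and 0% in Neurod6-detected cells. Cux1 at E12.5 had log2 changes of -0.23 (adjusted p = 0.106), -0.31 (adjusted p = 0.107) and -0.30 (adjusted p = 0.331) in the 3 classes. With the pair as a block it was called at E12.5 in Sox2-detected (-0.24, adjusted p = 0.0273) and Eomes-detected cells (-0.33, adjusted p = 0.0302), where that fit called 2127 of 13791 and 829 of 13108 genes. DESeq2 called Cux1 in Eomes-detected cells only (adjusted p = 0.0320), where it called 482 of 4468 genes with an adjusted p. Without het M2 of E12.5 Cux1 was called at that stage in all 3 classes (-0.32, -0.45 and -0.47), and so were 1902 of 13982, 1280 of 13297 and 1326 of 14704 genes. Genotype by stage was called for 0 of 27 (0% of all genes in each class; 0 at an unadjusted p under 0.05; 0 by DESeq2).

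For the other 8 genes the averaged estimates lay between -0.18 and 0.22 and none was called. Pou3f2 was the highest, at 0.22 in Sox2-detected cells (95% interval 0.01 to 0.43, adjusted p = 0.593; lower in het in 5 of 16 pairs), 0.17 in Eomes-detected and 0.17 in Neurod6-detected cells. Cux2 was at -0.02, -0.13 and -0.11, with intervals from -0.36 to 0.18. Mef2c was at 0.03, -0.04 and 0.04, with intervals from -0.40 to 0.40, and Inhba, the least deeply counted, had intervals from -0.88 to 0.83. At E17.5 in Neurod6-detected cells het libraries held 208 to 251 CPM of Cux1, 52.3 to 96.6 of Cux2, 403 to 813 of Pou3f2 and 457 to 633 of Pou3f3, each overlapping WT. The plot of genotype effects gives all estimates.

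**Figure D4:**
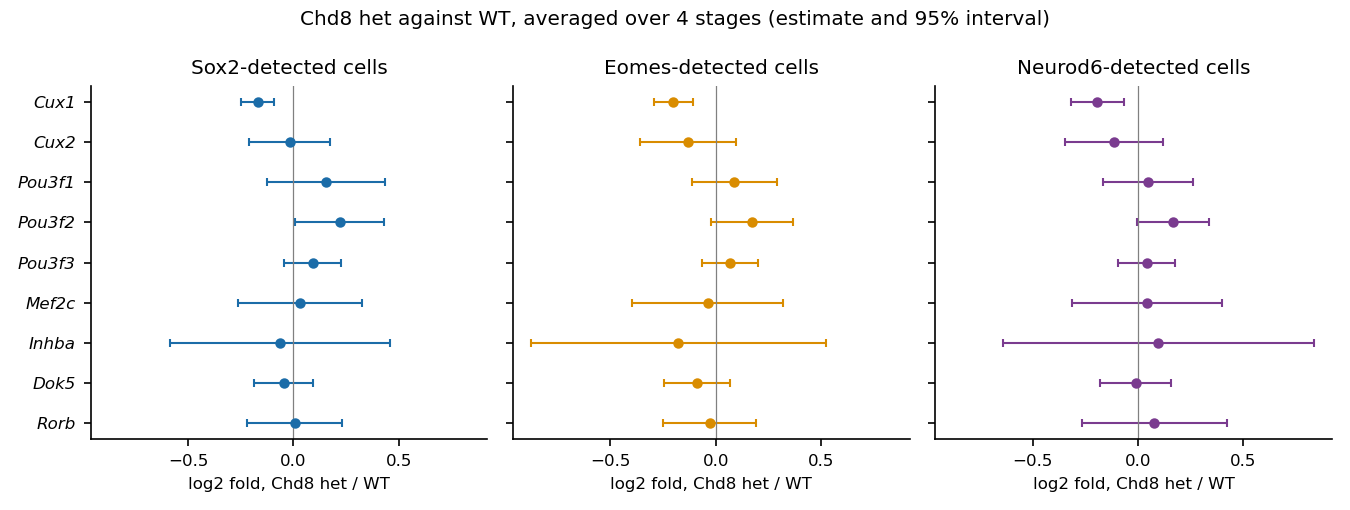
Log2 fold change of het over WT averaged over 4 stages for the 9 genes in Sox2-detected, Eomes-detected and Neurod6-detected cells, with 95% intervals from edgeR's standard errors. The intervals of Cux1 lie below 0 in all 3 classes, and 1 of them, in Sox2-detected cells, passed the adjusted threshold.

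Other genes of the same roles were read from lists chosen with earlier results known. Of 16 other upper-layer genes tested in Neurod6-detected WT cells, 10 rose and 4 fell between E12.5 and E17.5, with a median log2 change of 1.10 against 0.04 over all genes. Of all 14570 genes tested in this class 4596 (31.5%) rose and 4061 fell, the background for this and the next 3 lists. Gucy1a1 (4.69), which encodes a subunit of guanylate cyclase, and the netrin receptor gene Unc5d (4.44) rose. Lamp5 fell, from 16.8 ± 7.09 CPM to 2 UMIs over 4 libraries (SD, n = 4). Of 10 deep-layer genes 4 rose and 5 fell, with a median of -0.26: Crym (3.38) and Ldb2 (2.76) rose, and Fezf2 (-2.06) and Zfpm2 (-1.89) fell.

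Among 8 tested paralogs of the 9 genes 5 rose and 0 fell (median 0.78), among them Dok6 (3.52) and the related inhibin subunits Inhbb (2.53) and Inha (2.14). Activin pathway genes did not move one way: 2 of 7 rose and 3 fell, with Fst, which encodes the activin antagonist follistatin, at -2.31, the receptor genes Acvr2b at -1.38 and Acvr1b at 0.72, and Smad3 at -1.33. In het against WT averaged over stages, 0 genes of any of the 4 lists were called in any class.

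Patterns most like each gene were sought over 12 points (WT means of 3 exclusive classes at 4 stages) among 8208 genes, as Pearson's r of log2(CPM + 1). The closest were 9330151L19Rik (0.948) and Luc7l3 for Cux1, Reps2 (0.972) and AC149090.1 for Cux2, Plscr3 (0.978) and Amer2 for Pou3f1, Cdc37l1 (0.973) and Mir99ahg for Pou3f2, and Yeats2 (0.974) and Miga1 for Pou3f3. They were Snx32 (0.988) and Ankrd12 for Mef2c, Cldn3 (0.988) and Gnal for Inhba, Mafg (0.951) and 2610037D02Rik for Dok5, and Vcpip1 (0.977) and Rab5a for Rorb. Among the 9 genes the closest pairs were Cux2 with Mef2c (0.947), Cux1 with Pou3f3 (0.923) and Pou3f2 with Pou3f3 (0.907). The 12 points share libraries and depth, so these values only describe likeness.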

How the data were processed

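The deposited UMI counts per gene and cell came from 10x Genomics 3′ libraries, and the submitters' processing notes name STAR 2.7.9a, STARsolo, Cell Ranger and build mm10. A barcode counted as a cell from 1000 UMIs and 500 genes upward if mitochondrial genes took no more than 10% of its UMIs, and 5471 likely doublets were removed by comparison with simulated ones (0.8% per 1000 cells). Libraries shared a median of 25 barcodes and at most 63. UMIs were summed per library and class and tested with edgeR 4.0.16 in R 4.3.3 (quasi-likelihood, TMM factors, filterByExpr), with all 8 groups in 1 fit and p-values adjusted over all genes tested. DESeq2 1.42.0 was an alternative. The tests were checked on simulated counts with 50 genes changed at each size. Changes of 1.5-fold were recovered for 32% of them in WT E17.5 against E12.5. The share was 28% in Neurod6 only against Sox2 only cells at E17.5 and 96% in het against WT averaged. For 2-fold changes the shares were 88%, 92% and 100%. A stage or class difference that was not called can therefore hide a change of 1.5-fold. Replicate numbers pair WT and het embryos of 1 litter and sex, and deviations from group means correlated above 0.1 in 16 of 16 pairs (r from 0.164 to 0.873 over 8615 genes), although the matched number was the best partner in only 12 of 16. Members and gene lists were chosen with earlier results of these data known. Genes outside the 9 were named by size of change in Neurod6-detected WT cells, E17.5 against E12.5, or by likeness. Intervals of pooled ratios cover counting error only. One further comparison and a few genes of the lists are not reported here.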

Additional observations from a re-analysis of the deposited data

Results flagged for a closer look

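In 14 of 216 groups of 4 libraries, 1 library stood apart from the other 3, with a gap to its neighbour, as a share of the group's range, above Dixon's 95% critical value for 4 samples. By that value chance gives about 1 in 20 among groups that can be flagged. Groups whose highest library held fewer than 10 UMIs count among the 216 but could not be flagged. The classes also share cells, so the groups are not independent. In Sox2-detected cells these were Cux1 in WT F2 at E14.5 (lowest, 130 CPM), Cux2 in het F1 at E16.0 (highest, 17.8 CPM), Dok5 in het F1 at E12.5 (highest, 23.8 CPM), Pou3f1 in WT F1 at E14.5 (lowest, 13.1 CPM against 30.3 CPM in the next library), and Rorb in het F1 at E12.5 (highest, 5.95 CPM) and at E14.5 (highest, 17.3 CPM against 8.51 CPM).

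In Eomes-detected cells Cux1 was lowest in WT F1 at E17.5 (148 CPM), Dok5 was highest in het F1 at E12.5 (21.8 CPM) and lowest in het M1 at E17.5 (35.9 CPM), Pou3f1 was lowest in WT F1 at E14.5 (41.7 CPM), Pou3f2 was highest in het M1 at E16.0 (423 CPM), and Rorb was highest in het F1 at E12.5 (4.37 CPM, from 9 UMIs). In Neurod6-detected cells Cux2 was highest in WT F1 at E14.5 (30.7 CPM) and Dok5 lowest in WT F2 at E16.0 (65.7 CPM).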

How the results depend on the processing

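For het against WT averaged over stages, 1 of 27 tests was called. The count was 2 with DESeq2 and 2 with the replicate block, and 0 with exclusive classes, with at least 2 UMIs of the marker gene, without TMM factors, without the filter on low counts, without cells of other types, with thinned cells and, chosen after seeing the data, without E12.5. It was 0 to 2 without single libraries. At single stages it was 0, with 1 by DESeq2, 2 with the replicate block and 0 to 3 without single libraries, the 3 being without het M2 of E12.5. Between Eomes without Neurod6 and Sox2 only cells 16 were called, 10 without cells of other types and 13 to 16 without single libraries. Without single libraries the other counts ran from 13 to 15 (present at E12.5), 42 to 48 (neighbouring stages), 30 to 31 (Neurod6 only against Sox2 only) and 9 to 9 (E17.5 against E12.5 in each class). Those fits of class comparisons kept the dispersion of all libraries and left out WT libraries of the stage in question. Between Eomes without Neurod6 and Sox2 only cells the sign of a called difference turned for Cux2 at E14.5 (0.14) and E17.5 (0.50) and Mef2c at E14.5 (0.061) without cells of other types, and that of an uncalled one turned and became called for Mef2c at E12.5 (-1.65) with at least 2 marker UMIs and Pou3f3 at E16.0 (0.20) with thinned cells. The cause was not tested. Of 3574 estimates of called results 3571 kept their sign. Another 149, called in neither setting, changed sign, 83 of them without single libraries. Depth limits Inhba most, with 6 UMIs in Neurod6-detected WT cells at E12.5.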
